A study of Oryctolagus cuniculus with 8 samples.

Results

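The horizontal cell genes were 7 genes taken as markers of the horizontal cells of the vertebrate retina, namely ONECUT1, ONECUT2, LHX1, PROX1, TFAP2B, CALB1 and SEPT4. They were chosen by symbol from the 25666 genes of the expression table, by a rule that reads no measured value, although the genes were picked when earlier results of these data were known. The table listed SEPT4 under a calendar date that a spreadsheet had put in place of the symbol, and the other 6 stood under their own symbols. RNA was sequenced from 8 whole retinas of wild-type male Chinchilla rabbits, 2 retinas for each of 4 diets. The animals were 12 to 16 weeks old when obtained and were kept on their diet for 6 months. The normal diet (ND) was standard rabbit chow, and the other diets were made from it. The high-fat diet (HFD) held 10% lard with 0.5% cholesterol, the high-sucrose diet (HSD) held 40% sucrose, and the combined high-fat, high-sucrose diet (HFSD) had the lard and cholesterol of HFD together with 35% sucrose. Every group therefore shared the chow, the breed and the sex, and the diet was the only labelled difference. The study's methods also describe a glucose injection given to all animals for a tolerance test and eye examinations under anaesthesia. The labels do not say whether the 2 retinas of a diet came from separate animals, so that p-values measure the spread between these retinas only. In such bulk samples, fewer cells of a type and less RNA per cell cannot be told apart.

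Horizontal cells are inhibitory interneurons of the outer retina. They receive glutamate from the terminals of rods and cones, are joined to each other by gap junctions into wide networks, and feed back on the photoreceptors, which sharpens contrast at the first synapse of vision. Their fate is set by a cascade of transcription factors in which FOXN4 and PTF1A act early, ONECUT1 and ONECUT2 next, and LHX1, PROX1 and the TFAP2 factors later. Calbindin, the calcium-buffering protein encoded by CALB1, is the classical stain for these cells in the rabbit. Several of these genes are not limited to horizontal cells: CALB1, PROX1 and TFAP2B are also used by amacrine cells, and ONECUT1 and ONECUT2 by ganglion cells. Whether SEPT4 or LHX1 RNA in these retinas came from horizontal cells was not tested.

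The libraries carried the photoreceptor RNA that defines a retina, with 5 of 7 rod markers summing to 26844 to 37329 FPKM. All 7 horizontal cell genes were detected in each of the 8 retinas. Levels are given as FPKM, which divides the fragment count by both gene length and library depth, so that genes can be set side by side. SEPT4, which encodes a septin, a GTP-binding filament protein of the cytoskeleton, was the most abundant with a mean of 129 FPKM, above 96.7% of protein-coding genes. CALB1 followed with 39.5 FPKM, and its range of 32.3 to 48.9 FPKM lay wholly below that of SEPT4, 84.6 to 161 FPKM. The transcription factors TFAP2B and PROX1 had means of 15.2 and 14.9 FPKM and could not be ordered, because TFAP2B was the higher in 4 of 8 retinas. The remaining 3 factors were low: ONECUT1 averaged 2.49 FPKM, ONECUT2 1.47 FPKM and LHX1 1.47 FPKM. ONECUT1 exceeded ONECUT2 in 8 of 8 retinas, although their ranges overlapped, and ONECUT2 exceeded LHX1 in 5 of 8. Libraries held 15223355 to 22293220 fragments over all genes, as recovered from the steps of the FPKM values. This gave SEPT4 2141 to 5166 fragments in a retina, CALB1 1269 to 2216, ONECUT1 47 to 149, LHX1 68 to 140 and ONECUT2 12 to 44. With so few fragments, counting error alone came to between 15.1% and 28.9% of the level of ONECUT2, against 1.39% to 2.16% for SEPT4. The widest spread over the 8 retinas was that of ONECUT2, with a coefficient of variation of 36.5%, and the narrowest that of TFAP2B, with 8.87%.

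**Figure D1:**
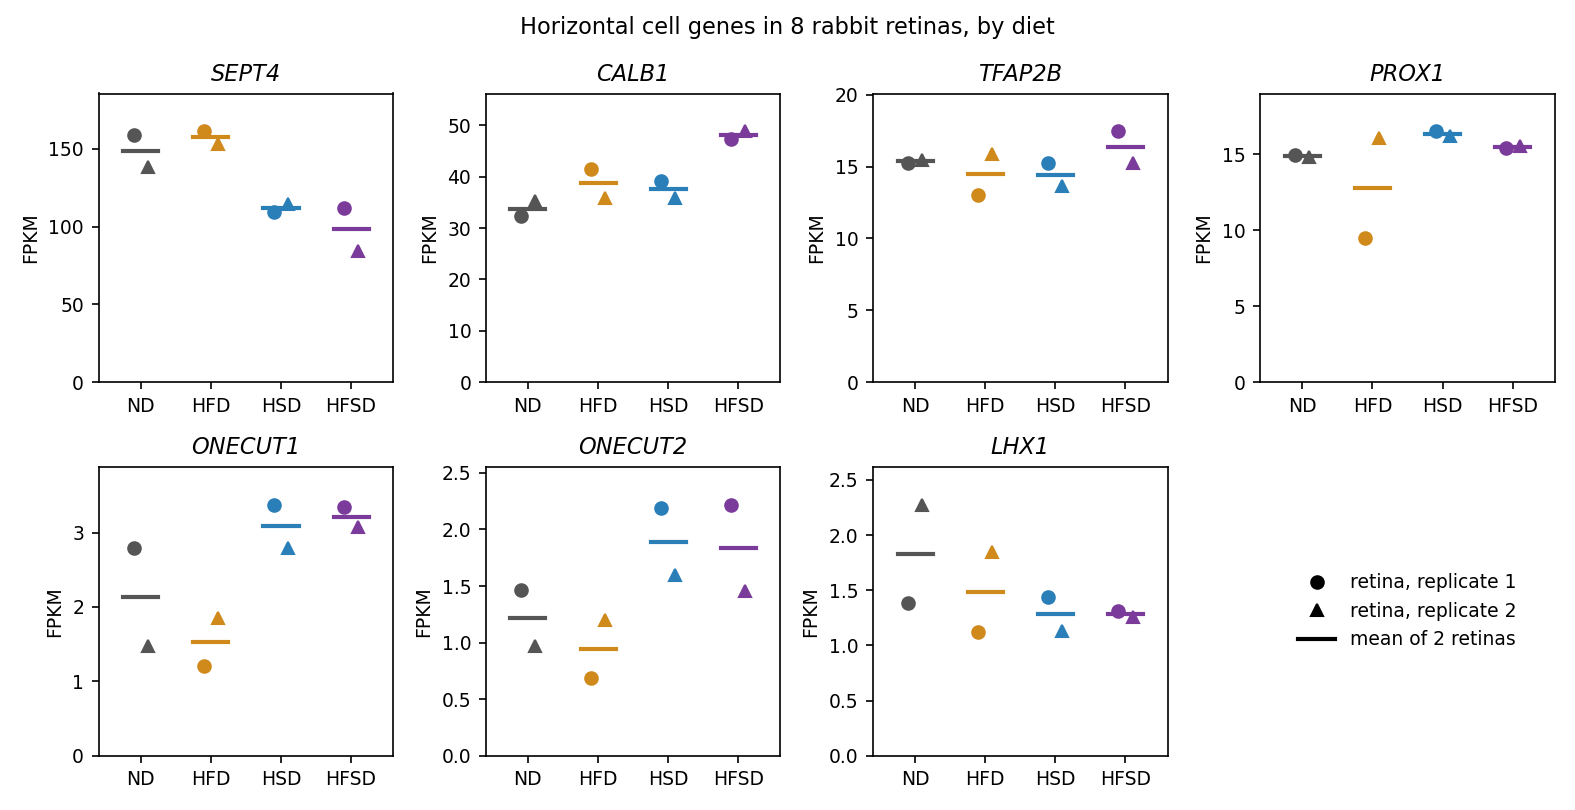
Level of each of the 7 horizontal cell genes in FPKM (vertical axis, from 0, with a scale of its own in each panel) by diet (horizontal axis). Circles are replicate 1, triangles replicate 2 and bars the mean of the 2 retinas; SEPT4 lies between 84.6 and 114 FPKM in the 4 retinas with sucrose and between 138 and 161 FPKM in the 4 without, and PROX1 stands at 9.49 FPKM in HFD replicate 1 alone.

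SEPT4 was the member with the smallest p for any comparison of diets, and its level was lower with sucrose. Its level was 159 and 138 FPKM in the 2 ND retinas, 161 and 153 FPKM under HFD, 109 and 114 FPKM under HSD, and 112 and 84.6 FPKM under HFSD. All 4 retinas from diets with sucrose were therefore below all 4 from diets without it, and HFD lay around the ND values. The group means were 149±14.6 FPKM under ND, 157±5.62 under HFD, 112±3.51 under HSD and 98.4±19.5 under HFSD (mean±s.d., n = 2 each). Differences were tested with limma on log2(FPKM + 1) in 1 model of the 4 diets over 12204 protein-coding genes, with p-values adjusted over all of them by the Benjamini-Hochberg method. Sucrose was tested as HSD and HFSD against ND and HFD, and for SEPT4 the log2 difference was -0.54 (SE 0.11, 95% interval -0.80 to -0.29), with an unadjusted p of 0.00129 and a limma adjusted p of 0.0940. SEPT4 thus missed the threshold of 0.05, at place 167 of the 12204 genes in order of p. In a fit of 2 groups of 4 retinas, chosen after the data had been seen, the same difference had a limma adjusted p of 0.0474 and passed it. Over all 18 alternatives the adjusted p ran from 0.0474 to 0.262, and the fit of 2 groups was the only one to give a call. Against ND alone, the log2 difference was -0.40 (SE 0.15, adjusted p 0.642) under HSD, -0.60 (SE 0.15, adjusted p 0.395) under HFSD and 0.08 (SE 0.15, adjusted p 0.998) under HFD, by limma. The value for HFSD was -0.80 without HFSD replicate 1 and -0.40 without HFSD replicate 2.

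Of 12 lists of markers of other cell types and tissues, the sums of 3 were also separated by sucrose in the same retinas and those of 9 overlapped. Single genes did not overlap by sucrose in 12.9% of all genes tested, which is the background for the counts of markers. The summed level of 6 of 6 Müller glia markers was 1891 to 2701 FPKM in the 4 retinas without sucrose and 1080 to 1271 FPKM in the 4 with it, and 2 of the 6 (GLUL and RLBP1) were separated as single genes. The sum of 6 of 6 pigment epithelium markers was 422 and 403 FPKM under ND, 214 and 254 FPKM under HFD, and 104 to 188 FPKM with sucrose. It was thus also lower under HFD than under ND, and only 1 of the 6 genes (LRAT) was separated by sucrose, with RPE65 at 10.1 FPKM in HFD replicate 2, below all 4 retinas with sucrose. Markers of cones went the other way, with sums over 6 of 7 genes of 686 to 1014 FPKM without sucrose and 1208 to 1356 FPKM with it, and 4 of the 6 genes separated. No marker of these lists was at 0 in all retinas, and in the Müller list GLUL, the glutamine synthetase of these glia, made up most of the sum, while SLC1A3, their glutamate transporter, ranged only from 180 to 203 FPKM over all 8 retinas. Ganglion cell markers (7 of 7 genes) ranged from 318 to 567 FPKM without sucrose and from 349 to 580 FPKM with it, and amacrine markers (7 of 8) from 288 to 312 and from 305 to 319 FPKM, so that both overlapped. The sums for bipolar cells, rods, endothelium, lymphatic endothelium, muscle, lens and microglia overlapped as well. The part of these other cell types in the levels of SEPT4 or of the other horizontal cell genes was not tested.

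**Figure D2:**
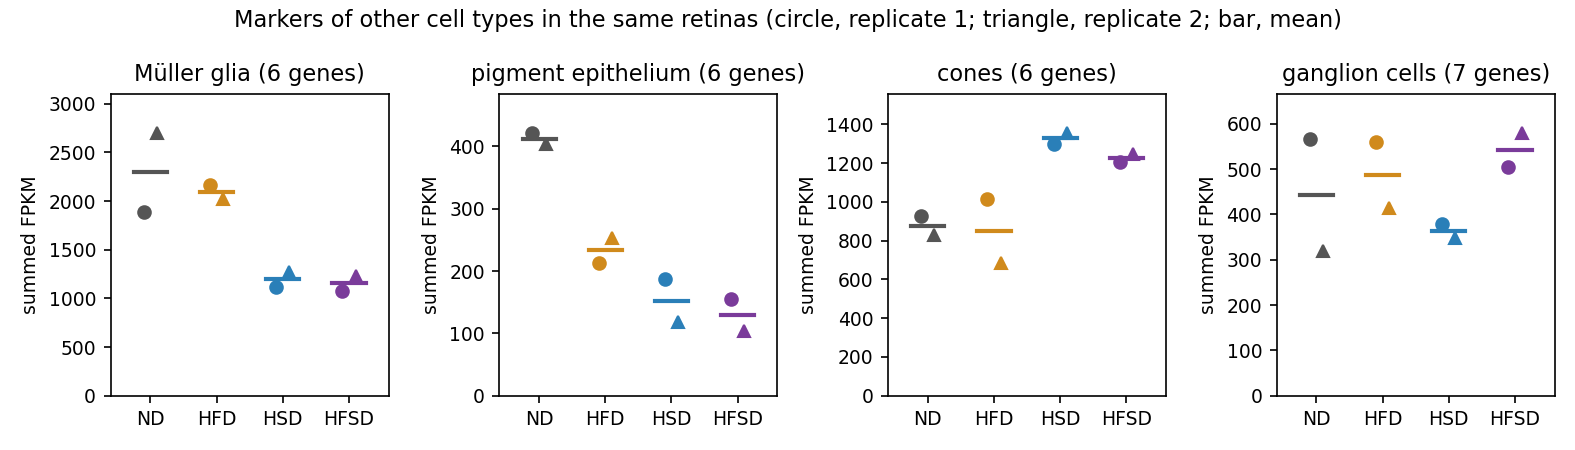
Summed FPKM of marker genes of Müller glia, pigment epithelium, cones and ganglion cells (vertical axes, from 0) in each retina by diet (horizontal axis), with circles for replicate 1, triangles for replicate 2 and bars for the mean. Müller and pigment epithelium sums are lower, and cone sums higher, in the 4 retinas with sucrose than in the 4 without, and ganglion cell sums overlap.

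CALB1 was at its highest under HFSD. It stood at 32.3 and 35.3 FPKM under ND, 41.6 and 35.8 FPKM under HFD, 39.2 and 35.9 FPKM under HSD, and 47.3 and 48.9 FPKM under HFSD. Each of the 6 retinas of the 3 modified diets was above both ND retinas, and the 2 HFSD retinas were above all others. Of all genes tested, 25.9% did not overlap between HFD and ND, 39.0% between HSD and ND, and 42.3% between HFSD and ND. The share separated from ND in all 3 diets was not counted. The group means were 33.8±2.12 FPKM under ND, 38.7±4.05 under HFD, 37.5±2.30 under HSD and 48.1±1.1 under HFSD (mean±s.d., n = 2 each). The log2 difference from ND was 0.50 under HFSD (SE 0.12, unadjusted p 0.00332, limma adjusted p 0.355), 0.19 under HFD (SE 0.12, adjusted p 0.998) and 0.15 under HSD (SE 0.12, adjusted p 0.815). None of them passed the test. The value for HFD was 0.09 without HFD replicate 1 and 0.29 without HFD replicate 2. That for HSD was 0.09 without ND replicate 1 or without HSD replicate 1, and 0.21 without ND replicate 2 or without HSD replicate 2. The diets with fat were set against those without (HFD and HFSD against ND and HSD), which gave CALB1 a log2 difference of 0.27 (SE 0.08, unadjusted p 0.0129, limma adjusted p 0.9996), and the difference for sucrose was 0.23 (SE 0.08, adjusted p 0.216). The interaction is the amount by which HFSD departs from the sum of the separate differences of HFD and HSD. For CALB1 it was 0.16 (SE 0.17, 95% interval -0.23 to 0.55). With 2 retinas a diet the interval included 0, and an excess under HFSD over that sum was not shown.

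ONECUT1 and ONECUT2, related cut-homeodomain factors that take part in horizontal cell genesis, had higher mean levels in the sucrose diets. ONECUT1 had 2.80 and 1.47 FPKM under ND, 1.20 and 1.85 FPKM under HFD, 3.37 and 2.79 FPKM under HSD, and 3.34 and 3.08 FPKM under HFSD. Its 4 retinas with sucrose were above 3 of the 4 without it, and ND replicate 1 reached the level of HSD replicate 2. ONECUT2 had 1.47 and 0.974 FPKM under ND, 0.691 and 1.20 FPKM under HFD, 2.19 and 1.60 FPKM under HSD, and 2.22 and 1.46 FPKM under HFSD. Here ND replicate 1 lay just above HFSD replicate 2, and the remaining values were separated by sucrose. The log2 difference for sucrose was 0.58 for ONECUT1 (SE 0.18, unadjusted p 0.0122, limma adjusted p 0.172) and 0.46 for ONECUT2 (SE 0.18, unadjusted p 0.0321, limma adjusted p 0.234). Neither passed the test. For ONECUT2 the unadjusted p was no longer under 0.05 without ND replicate 2, HFD replicate 1, HSD replicate 1 or HFSD replicate 1, where the difference was 0.37 to 0.39, and the difference was 0.76 with a pseudocount of 0.1 and 0.82 by voom on the recovered fragments. The 2 ND retinas were unlike for ONECUT1, and its log2 difference for HSD against ND was 0.41 with both, 0.72 without ND replicate 1 and 0.10 without ND replicate 2, and the limma adjusted p was 0.773 with both. For HFSD it was 0.46 with both, 0.77 without ND replicate 1 and 0.15 without ND replicate 2 (adjusted p with both 0.673). For ONECUT2 the difference from ND was 0.38 under HSD (SE 0.25, adjusted p 0.785) and 0.35 under HFSD (SE 0.25, adjusted p 0.763) by limma. The value for HSD was 0.22 without ND replicate 2 and 0.24 without HSD replicate 1, and that for HFSD was 0.19 without ND replicate 2, 0.15 without HFSD replicate 1 and 0.54 without HFSD replicate 2. In HFD the difference was -0.29 (SE 0.25) for ONECUT1 and -0.20 (SE 0.25) for ONECUT2, both with an adjusted p of 0.998 by limma, and that of ONECUT2 was -0.0070 without HFD replicate 1. That of ONECUT1 turned to 0.019 without ND replicate 1 and was -0.60 without ND replicate 2.

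LHX1, a LIM homeodomain factor that places horizontal cells in their layer, had its highest values in a pair of retinas without sucrose. Its level was 1.38 and 2.28 FPKM under ND, 1.12 and 1.85 FPKM under HFD, 1.44 and 1.13 FPKM under HSD, and 1.31 and 1.26 FPKM under HFSD. The 2 highest values were the second retinas of ND and HFD, and the other 6 lay between 1.12 and 1.44 FPKM. The log2 difference for sucrose was -0.20 (SE 0.17, 95% interval -0.60 to 0.20), with a limma adjusted p of 0.558, and with 1 retina left out it ran from -0.31 (without ND replicate 1) to -0.08 (without ND replicate 2). Against ND it was -0.18 (SE 0.24) under HFD, -0.29 (SE 0.24) under HSD and -0.29 (SE 0.24) under HFSD, with limma adjusted p of 0.998, 0.823 and 0.793. The values for HSD and HFSD rested on the ND retinas: without ND replicate 2 the difference was -0.06 for both HSD and HFSD, and without ND replicate 1 it was -0.52 for both. That for HFD turned to 0.026 without HFD replicate 1 and to 0.045 without ND replicate 2.

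PROX1, a homeodomain factor needed for horizontal cells to form, varied little outside 1 library. It stood at 15.0 and 14.8 FPKM under ND, 9.49 and 16.1 FPKM under HFD, 16.5 and 16.2 FPKM under HSD, and 15.4 and 15.6 FPKM under HFSD. The other 7 retinas thus lay between 14.8 and 16.5 FPKM. Its log2 difference from ND was -0.25 under HFD (SE 0.21, limma adjusted p 0.998), which became 0.10 without HFD replicate 1. It was 0.13 under HSD and 0.05 under HFSD (SE 0.21 each, adjusted p 0.918 and 0.961 by limma), and 0.21 for sucrose (SE 0.15, adjusted p 0.464), or 0.04 without HFD replicate 1 and 0.39 without HFD replicate 2. TFAP2B, an AP-2 factor of horizontal and amacrine cells, was the steadiest. Its values were 15.3 and 15.5 FPKM under ND, 13.0 and 15.9 FPKM under HFD, 15.2 and 13.7 FPKM under HSD, and 17.5 and 15.3 FPKM under HFSD. HFD and HFSD overlapped with ND, and both HSD retinas were just below those of ND. The log2 difference for sucrose was 0.04 (95% interval -0.18 to 0.27, limma adjusted p 0.836), and those against ND were -0.09 under HFD, -0.09 under HSD and 0.08 under HFSD (SE 0.14 each), with limma adjusted p of 0.998, 0.917 and 0.897. The value for HSD was -0.16 without HSD replicate 1 and -0.012 without HSD replicate 2. With values rescaled to a common sum, TFAP2B had -0.15 under HFD, -0.03 under HSD, 0.13 under HFSD and 0.12 for sucrose. PROX1 then had 0.10 under HFSD.

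HFD replicate 1 held the lowest value of 5 of the 7 genes (ONECUT1, ONECUT2, LHX1, PROX1 and TFAP2B) and the highest of SEPT4. This library stood apart in the table as a whole, since its FPKM values summed to 653354, against 564389 to 611233 in the others. Its short genes (up to 1069 bases) were higher than the 8-library mean by a median of 0.18 on the log2 scale, and its long genes (from 3495 bases) deviated by -0.12. Of the 5 genes lowest there, TFAP2B (6075 bases) was a long gene and ONECUT2 (870 bases) a short one. ONECUT1 (1955 bases), PROX1 (2828 bases) and LHX1 (3474 bases) lay between these limits. The part of gene length in their low values was not tested. HSD replicate 2 held muscle RNA, with 5 of 6 muscle markers summing to 399 FPKM, against at most 0.848 FPKM elsewhere. None of the 7 genes had its lowest or highest value there, and without it the log2 difference for sucrose was -0.56 for SEPT4 and 0.63 for ONECUT1. The part of either library's RNA in these values was not tested otherwise.

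Over all members, none of 7 passed an adjusted p of 0.05 in any of the 6 comparisons by limma. The background was low as well: the share of the 12204 genes called was 0.00819% under HFD, 0.0574% under HSD and 0.0164% under HFSD against ND, 0.344% for sucrose, 0.00819% for fat and 0.00819% for the interaction. At an unadjusted p under 0.05 the members counted 0 of 7 under HFD (4.31% of all genes tested), 1 under HSD (SEPT4; 7.20%) and 2 under HFSD (SEPT4 and CALB1; 8.07%). For sucrose they counted 4 of 7 (SEPT4, ONECUT1, CALB1 and ONECUT2), where 18.3% of all genes reached it. That count fell to 2 without HSD replicate 1 or without HFSD replicate 1, and to 3 without HFD replicate 1, HFSD replicate 2 or either ND replicate. For fat they counted 1 (CALB1; 3.20%) and for the interaction 0 (3.74%). These counts also moved with 1 retina left out. That for HSD fell to 0 without either HSD replicate and with values rescaled to a common sum (TPM), and without ND replicate 1 the 1 member was ONECUT1 in place of SEPT4. That for HFD rose to 1 without ND replicate 2 (ONECUT1) and to 2 without HFD replicate 2 (CALB1 and PROX1), that for HFSD to 3 without ND replicate 1, and that for the interaction to 1 without HFD replicate 2. That for fat was 2 without HFD replicate 2 and 0 without HSD replicate 2. The 3 comparisons with ND share its 2 retinas. For sucrose, 5 members had a higher and 2 a lower fitted level, and the median log2 difference of the 7 was 0.21, against -0.01 over all genes tested. That median is the value of PROX1, which was 0.04 without HFD replicate 1, and TFAP2B then turned to -0.024. The retinas of a diet did not overlap with those of ND for 1 member under HFD (25.9% of genes tested), for 5 under HSD (39.0%) and for 5 under HFSD (42.3%). The directions were mixed. Under HSD, CALB1, PROX1 and ONECUT2 were above ND, and SEPT4 and TFAP2B below. Under HFSD, CALB1, PROX1 and ONECUT1 were above, and SEPT4 and LHX1 below. With values rescaled to TPM the count was 4 for HSD and 6 for HFSD. By the same measure, 1 member was separated by sucrose (SEPT4; 12.9%) and 0 by fat (1.34%).

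The study used as limits a ratio of FPKM + 1 in a diet to that under ND more than 54% above or more than 35% below 1. They were applied here to the means of the 2 retinas, a choice made here. None of 7 members passed these limits under HFD, HSD or HFSD, where 1.76%, 3.95% and 3.43% of the 19293 protein-coding genes did. The nearest was SEPT4 under HFSD, with a ratio of 0.664, followed by CALB1 under HFSD with 1.41. SEPT4 under HFSD lay past the limit without ND replicate 2, at 0.621, and without HFSD replicate 1, at 0.572. ONECUT1 lay past it without ND replicate 1, at 1.65 under HSD and 1.70 under HFSD.

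**Figure D3:**
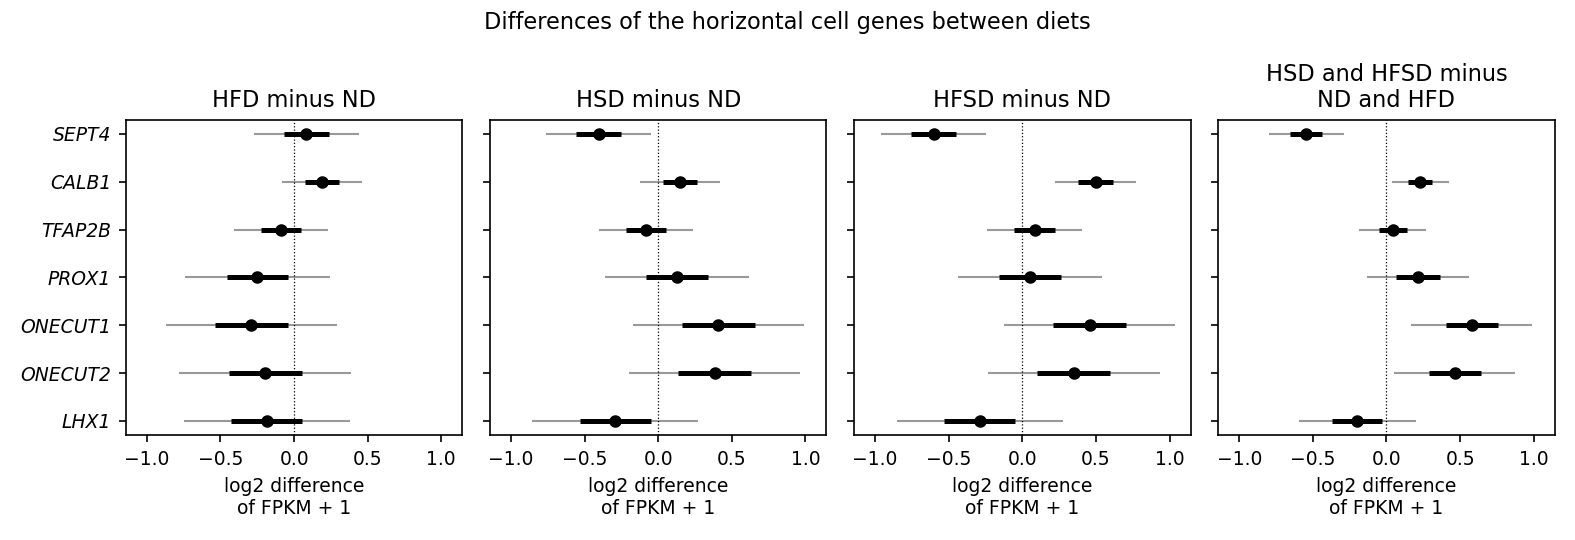
Log2 difference of FPKM + 1 (horizontal axes) of the 7 horizontal cell genes, for HFD, HSD and HFSD against ND and for the 2 diets with sucrose against the 2 without. Points are limma estimates, thick bars 1 SE and thin bars 95% intervals; for sucrose the interval of SEPT4 runs from -0.80 to -0.29, those of ONECUT1, ONECUT2 and CALB1 lie above 0, and those of PROX1, TFAP2B and LHX1 include 0.

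Among the genes that act upstream of or beside the members, 4 of 6 were found in the table. FOXN4, the forkhead factor that opens the horizontal and amacrine fate in the embryo, was at most 0.0349 FPKM and was not tested. RORB, an orphan nuclear receptor that works with it, ranged from 50.4 to 76.3 FPKM, TFAP2A from 22.6 to 34.3 FPKM and ISL1, a LIM factor of some horizontal cell types, from 14.4 to 21.5 FPKM. Of these 3 none reached an unadjusted p of 0.05 in any comparison by limma. RORB and TFAP2A had their lowest values in HFD replicate 1, as did 5 of the members.

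Of a list of 13 genes for coupling, transmission and the cytoskeleton, 12 were found and 11 tested, and none was called in any comparison. These genes are not particular to horizontal cells, and which cells of these retinas their RNA came from was not tested. GJA10, a connexin of horizontal cell gap junctions, was low at 1.77 to 2.79 FPKM. GAD1, GAD2 and SLC32A1, which make GABA and load it into vesicles in horizontal and amacrine cells, ranged from 54.7 to 62.0 FPKM, 19.9 to 27.7 FPKM and 37.2 to 42.2 FPKM. PVALB, a calcium buffer related to calbindin, had 89.6 and 68.6 FPKM under ND, 95.7 and 74.3 under HFD, 52.7 and 49.1 under HSD, and 66.1 and 59.6 under HFSD. Like SEPT4 it did not overlap between diets with and without sucrose, with a log2 difference of -0.52 (SE 0.12, unadjusted p 0.00320, limma adjusted p 0.116). The glutamate receptor subunits GRIA2 and GRIA4 had log2 differences for sucrose of 0.64 (SE 0.23, adjusted p 0.218) and 0.34 (SE 0.14, adjusted p 0.252) by limma. GRIA2 was at 16.1 and 15.6 FPKM in ND replicate 2 and HFD replicate 1, and at 27.3 to 38.7 FPKM in the other 6 retinas. NEFL, the light neurofilament, had a log2 difference for sucrose of -0.30 (SE 0.12, limma adjusted p 0.242), for fat of 0.28 (SE 0.12, adjusted p 0.9996) and for HSD against ND of -0.52 (SE 0.16, adjusted p 0.533); for PVALB the last was -0.62 (SE 0.17, adjusted p 0.449). The list counted 6 genes higher and 5 lower for sucrose, with a median log2 difference of 0.03. In the interaction all 11 tested genes were above 0, as were 51.9% of all genes tested, with a median of 0.20 against 0.01, and none reached an unadjusted p of 0.05. There 6 of the 7 members (median 0.17) and 3 of the 3 regulators (median 0.13) were above 0 as well. HFD enters the interaction with a minus sign, and HFD replicate 1 held the lowest value of 5 members, RORB and TFAP2A. Without that library the difference for HFD was 0.10 for PROX1, 0.026 for LHX1 and 0.045 for TFAP2B, in place of -0.25, -0.18 and -0.09. The signs in the interaction thus depend in part on that library, and they were not counted without it.

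Of 12 other septins, 9 were found and 8 tested. All 9 were listed as calendar dates, as SEPT4 was, so that every septin value rests on reading the date as a symbol. Their means ran from 0.652 FPKM for SEPT12 to 73.3 FPKM for SEPT7, below the 129 FPKM of SEPT4. For sucrose 4 were higher and 4 lower, with a median log2 difference of -0.02, and none was called. SEPT2, of the ubiquitous septins, was lower (log2 difference -0.25, SE 0.09, unadjusted p 0.0276, limma adjusted p 0.219), at 45.3 to 49.9 FPKM with sucrose and 50.7 to 62.6 FPKM without. SEPT11 was higher (0.24, SE 0.08, unadjusted p 0.0134, limma adjusted p 0.177), at 19.2 to 21.8 FPKM with sucrose and 16.5 to 18.3 FPKM without, and its log2 difference for HSD against ND was 0.29 (SE 0.11, adjusted p 0.606).

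**Figure D4:**
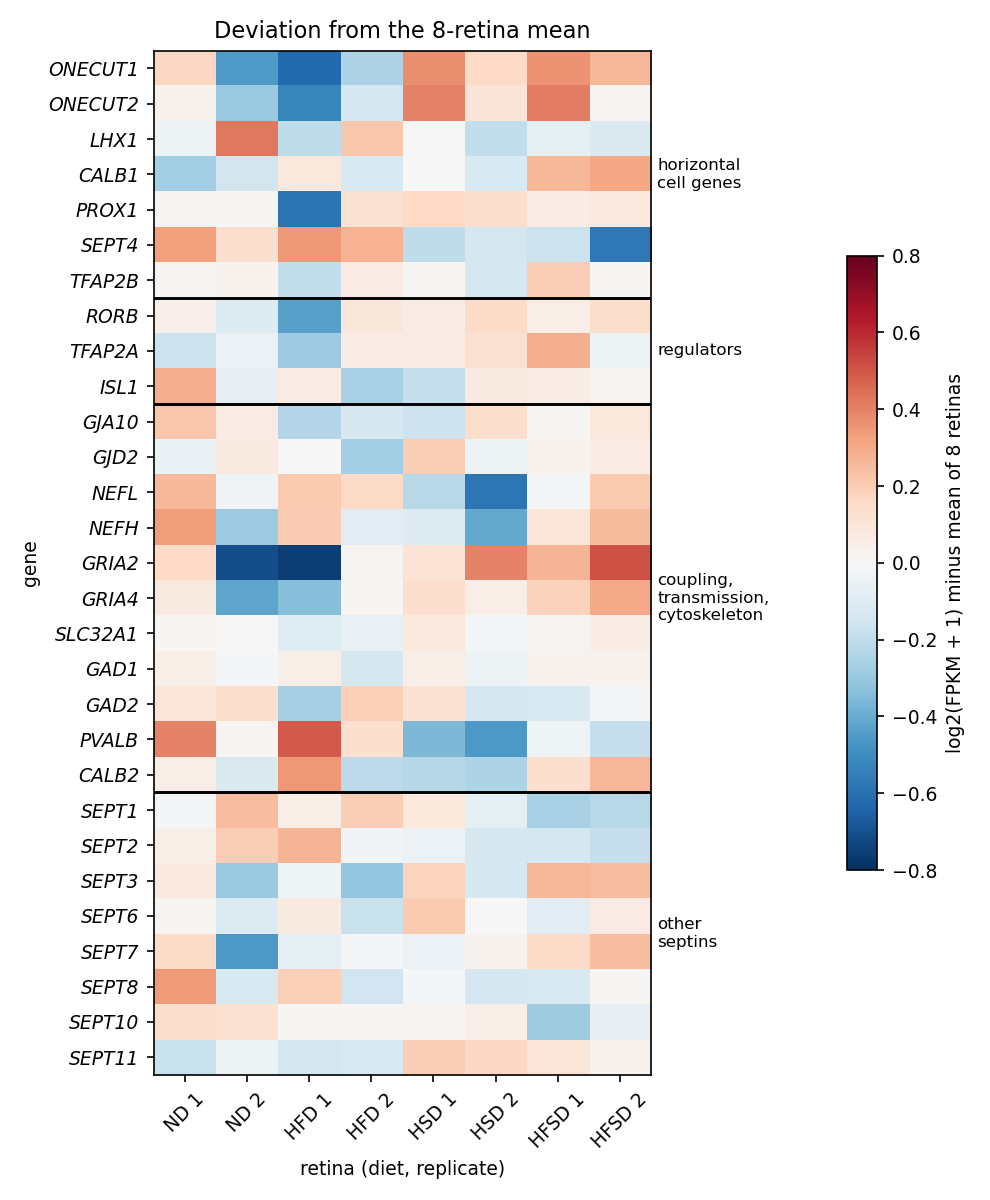
Log2(FPKM + 1) of each gene minus its mean over the 8 retinas (colour, red above and blue below the mean), for the 7 horizontal cell genes and the tested regulators, genes of coupling, transmission and cytoskeleton, and other septins (vertical axis), in each retina (horizontal axis). SEPT4 is above its mean in the 4 retinas without sucrose and below it in the 4 with it, ONECUT1 is above its mean in the 4 with sucrose and in ND replicate 1, and the column of HFD replicate 1 holds the lowest value of 5 members.

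The 7 genes did not vary as 1 group across the retinas. Of their 21 pairs, 12 had a positive Pearson correlation of log2(FPKM + 1) over the 8 libraries, which share diets and library effects, and the values ran from -0.69 for ONECUT1 and SEPT4 to 0.94 for ONECUT1 and ONECUT2. Without HFD replicate 1, 4 of the 21 changed sign, PROX1 and TFAP2B for instance from 0.60 to -0.32, and the lowest was -0.88, for ONECUT1 and LHX1 (-0.37 with it). SEPT4 was negatively correlated with 5 of the other 6 over the 8 libraries. ONECUT1 and ONECUT2 had a Spearman rho of 0.88, moved in the same direction between the 2 retinas in 4 of 4 diets, and stood at r = 0.90 over the 7 libraries without HFD replicate 1. ONECUT1 and PROX1 had r = 0.69, and 0.37 without that library. The genes of at least 5 FPKM whose pattern over the 8 libraries was most like that of a member are given as a description: PCDH7 (r = 0.99) and ASTN1 (0.98) for ONECUT1, MAST2 (0.98) and DNAJC6 (0.96) for ONECUT2, and SLC49A4 (0.97) and CLUAP1 (0.95) for LHX1. For PROX1 they were MED13 (r = 0.99) and TAB3 (0.99), for TFAP2B NLGN2 (0.94) and EPHA4 (0.93), for CALB1 PHAX (0.97) and EED (0.94), and for SEPT4 PDK2 (0.97) and ORAI1 (0.97). Each was among the top 2 of 7625 or 7626 candidates on 8 points.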

How the data were processed

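Dissected retinas gave total RNA, sequenced from TruSeq libraries. Per the labels and the study's methods, the authors checked reads with FastQC, trimmed them, mapped them with TopHat2, discarded reads with several positions and computed FPKM with their own script. The genome build, annotation and versions are not given in the sources used here. The deposited FPKM values are the only measurement used. Fragments, gene lengths and depths were recovered from the steps of the values (100% of values above 0 came out whole within 0.02 fragments); the recovery and the test were checked on simulated data. Protein-coding genes reaching 1 FPKM in 2 or more libraries were tested with limma 3.58.1 (R 4.3.3; empirical Bayes with a trend) on log2(FPKM + 1), which understates changes of low genes. All 7 members, whatever their values, were named. Genes of 3 further lists were named where unadjusted p was under 0.05, others chosen after their values were seen. For each member, 2 like genes of at least 5 FPKM were named. The members and lists were chosen with earlier results of these data known. No sequences were used here. Alternatives were another pseudocount, filter and scaling, voom, fits without trend, with a replicate block or of fewer retinas, and 2 groups of 4.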

Additional observations from a re-analysis of the deposited data

How the results depend on the processing

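No member was called in any of 6 comparisons under the alternatives run, except for sucrose in the fit of 2 groups of 4 retinas, where 1 member (SEPT4) was. Leaving out 1 retina moved the members past the fold limits from 0 to between 0 and 1 for HSD and for HFSD. Of 29 log2 differences, 7 changed sign in some fit, all of them when 1 retina was left out. Over those fits the difference for HFD ran from -0.60 to 0.019 for ONECUT1, from -0.41 to 0.045 for LHX1, from -0.60 to 0.10 for PROX1, from -0.016 to 0.18 for SEPT4 and from -0.22 to 0.045 for TFAP2B. TFAP2B ran from -0.0079 to 0.17 for HFSD and from -0.024 to 0.11 for sucrose. Without both ND replicate 2 and HFD replicate 1, chosen after seeing the data, the difference for HFD was 0.26 for LHX1, 0.097 for PROX1, -0.052 for SEPT4 and 0.053 for TFAP2B, and that of TFAP2B for sucrose was -0.020. For sucrose ONECUT1 was then 0.33 and ONECUT2 0.29, neither with an unadjusted p under 0.05, and 2 members in place of 4 reached it. With a pseudocount of 0.1 and by voom, low genes had larger differences, ONECUT2 at 0.60 and 0.62 for HSD, 0.55 and 0.61 for HFSD, and LHX1 at -0.44 and -0.46 for HSD. The replicate numbers were treated as names, because differences between same-numbered retinas correlated at -0.165 to 0.0813 between diets; with a replicate block, 0 members were called. The cause of these changes was not tested. Counting error limits ONECUT2, ONECUT1 and LHX1 most, and 2 retinas a diet limit every comparison.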
